A study of Homo sapiens with 6 samples.

Results

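The S100 genes encode small calcium-binding proteins, and 10 of them, S100A2, S100A3, S100A4, S100A6, S100A10, S100A11, S100A13, S100A14, S100A16 and S100P, were taken by name from a table of 78932 listed genes. All 10 had a row, and 9 had enough reads to be tested among 16091 tested genes; S100A14 did not. Most S100 proteins are dimers whose EF-hand loops bind calcium, which uncovers a surface that grips a target protein such as an annexin, a myosin or ezrin. Some are also released from the cell and bind surface receptors such as AGER. Most of the genes stand side by side on chromosome 1, while S100P lies on chromosome 4, and in the lung several of them are known as epithelial and tumour genes.

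RNA was sequenced from cells labelled A549, an established human lung adenocarcinoma line, in 3 libraries whose labels give HIF-1β overexpression by transfection (OE) and 3 libraries labelled wild type (WT). HIF-1β, the product of ARNT, pairs with the α subunits of HIF and with the aryl hydrocarbon receptor AHR to bind DNA, and the series title joins it with mTORC2 in lung cancer. The treatment field reads the same for both groups, so what the WT cells received is not stated, nor is whether the OE cells are a clone, a pool or a transient culture. All cells grew in RPMI with fetal bovine serum, glutamine and antibiotics. The labels do not state whether replicate libraries were separate cultures, so each p-value reflects only library-to-library spread, possibly technical.

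ARNT stood at 141, 146 and 130.0 CPM in the OE libraries, against 39.0, 50.04 and 42.2 CPM in the WT libraries, so its direction matched the labels (3.18-fold, log2 fold change 1.67, SE 0.095, edgeR adjusted p = 6.5e-08). CPM are counts scaled to a total of 1000000 over the tested genes after TMM scaling, which corrects for library composition. The libraries held 17192161 to 24454236 counts, and 1 count was worth 0.0419 to 0.0607 CPM.

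The libraries labelled wild type went against the A549 label at several known features of that line, and each S100 result below compares the same libraries. A549 is known to have lost the MTAP and CDKN2A region and to express KRT7 and the epithelial cadherin gene CDH1. MTAP was at 0.400 ± 0.234 CPM in the OE libraries and 78.1 ± 5.01 CPM in the WT libraries (SD, n = 3 each). CDKN2A had no read in any library, so at this gene neither group went against the label. CDH1 was at 228 ± 25.0 CPM in the OE libraries and 0.672 ± 0.793 CPM in the WT libraries, and KRT7 at 1481 ± 94.6 CPM in the OE libraries and 9.45 ± 3.79 CPM in the WT libraries. TBXT, which encodes the mesoderm factor brachyury, had 3 reads in all in the OE libraries and 2076 ± 294 CPM in the WT libraries. The keratin gene KRT19, an epithelial marker, went the other way, at 0.497 ± 0.132 CPM in OE and 208 ± 17.1 CPM in WT. Of 18 A549 and lung epithelial markers, 14 were tested, 9 were higher and 5 lower in OE, against 38.3% higher and 35.7% lower among all tested genes. The list mixes genes that A549 expresses with genes it has lost, and MTAP is among the 5 lower. These counts therefore do not measure likeness to A549. Besides MTAP and KRT19, the lower markers were AKR1C1, NQO1 and SMARCA4. AKR1C1 was at 422 ± 66.7 CPM in OE and 959 ± 38.6 CPM in WT. NQO1 was at 1440 ± 51.8 CPM in OE and 2367 ± 21.3 CPM in WT, and SMARCA4 at 15.6 ± 1.83 CPM in OE and 201 ± 4.33 CPM in WT. The summed level of the 18 markers was 21228 to 22484 CPM in the OE libraries and 7386 to 7867 CPM in the WT libraries, with CDKN2A at 0 in all 6. Without ALDH1A1, the marker that differed most in CPM, it was 12913 to 13553 CPM in the OE libraries and 7342 to 7811 CPM in the WT libraries. Of 15 markers of other cell types, 8 were tested, 3 were higher and 4 lower, against the same shares, and their sum was 954 to 997 CPM in the OE libraries and 2867 to 3361 CPM in the WT libraries, with PTPRC, CD3E and INSM1 at 0 in all 6. Without TBXT that sum was 954 to 997 CPM in the OE libraries and 955 to 1026 CPM in the WT libraries. The same count table also holds columns named for another lung cancer line, H460, which were not used, and whether libraries or columns were exchanged between lines was not tested. A difference between cell lines and the overexpression of HIF-1β cannot be told apart in any comparison here.

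The stretches upstream of the starts of S100A16 and S100A3 are shown because these genes had the largest differences upward and because HIF and AHR complexes that contain HIF-1β bind short core sequences. RefSeq promoter windows, from 250 bases before to 50 after a gene's start in GRCh38.p14, were found for all 10 genes, 14 windows in all. The stretches shown are the longest parts upstream of each start without an annotated exon of an S100 gene described here. They run from base 250 to base 1 before the inner start of S100A16, from 250 to 9 before its outer start, and from 250 to 115 before the start of S100A3, so the last 2 stretches stop short of the start. Capitals mark ACGTG, a form of the HIF core, and GCGTG, the AHR core, on either strand. GCGTG is also a form of the HIF core, so counts of ACGTG alone do not cover every HIF core. ACGTG also lies within the E-box CACGTG, which no window of the 10 genes held.
S100A16, inner start, chr1:153609356-153609605, minus strand: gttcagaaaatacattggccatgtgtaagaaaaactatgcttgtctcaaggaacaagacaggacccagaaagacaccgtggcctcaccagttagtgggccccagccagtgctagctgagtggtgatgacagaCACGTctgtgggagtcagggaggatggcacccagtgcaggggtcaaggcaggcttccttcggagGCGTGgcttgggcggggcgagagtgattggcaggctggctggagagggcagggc
S100A16, outer start, chr1:153613146-153613387, minus strand: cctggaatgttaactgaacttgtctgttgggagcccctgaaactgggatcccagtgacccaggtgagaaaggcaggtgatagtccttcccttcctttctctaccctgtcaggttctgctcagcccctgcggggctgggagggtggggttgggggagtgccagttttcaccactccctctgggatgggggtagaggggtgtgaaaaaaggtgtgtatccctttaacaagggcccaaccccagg
S100A3, chr1:153549373-153549508, minus strand: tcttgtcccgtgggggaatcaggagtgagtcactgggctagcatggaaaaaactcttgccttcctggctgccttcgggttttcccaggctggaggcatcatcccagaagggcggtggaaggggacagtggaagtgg

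The inner S100A16 window held 1 ACGTG and 1 GCGTG, and the outer window held neither. No window of S100A3 held either core. Over all 10 genes, ACGTG occurred in 2 of 14 windows, those of S100A16 and S100A10, against 21.4% of all 35116 RefSeq windows of this length. GCGTG occurred in 7 of the 14, against 36.5% of all windows. Such matches describe letters in these windows and say nothing of binding.

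A TATA box, TATAAA, was present in 3 of the 14 windows, against 11.5% of all windows. The genes were S100P, which was lower in OE, S100A4, which was higher, and S100A13, which did not pass. These 30-base stretches are shown with the box in capitals.
S100P, chr4:6693838-6693867, plus strand: atgaggctgcctTATAAAgcaccaagaggc
S100A4, chr1:153545820-153545849, minus strand: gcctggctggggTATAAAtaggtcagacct
S100A13, chr1:153627517-153627546, minus strand: ttccccgctgctTATAAAcctcagccctga

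Of the 9 tested S100 genes, 4 were higher in OE (S100A16, S100A3, S100A4 and S100A10), 1 was lower (S100P) and 4 did not pass the test (edgeR quasi-likelihood, adjusted p under 0.05 over all tested genes). Among all tested genes 74.0% passed in either direction, 38.3% higher and 35.7% lower, so 5 of 9 is no excess over the table as a whole. For 6 of the 9 every library of one group lay above every library of the other, as did 77.3% of all tested genes. The median log2 fold change was 0.14 over the 9 genes and 0.034 over all tested genes. The differences ranged from 480.4-fold higher for S100A16 to 7.26-fold lower for S100P, while S100A6 and S100A11 lay within 0.02 of 0 on the log2 scale.

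**Figure D1:**
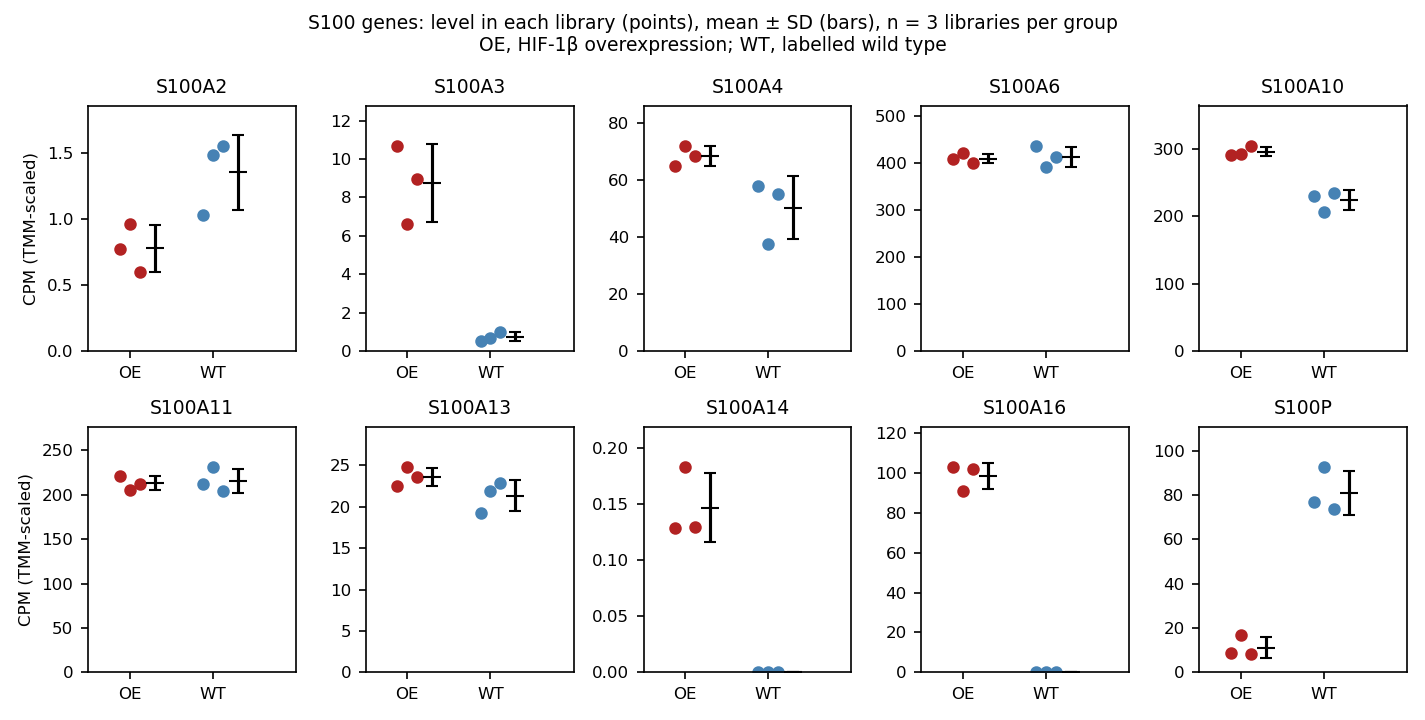
Level of each S100 gene in CPM (vertical axis, linear, from 0) in the OE and WT libraries; points are libraries and bars are mean ± SD, n = 3. S100A16 stood at 91.0 to 103 CPM in OE and at 0.102 to 0.303 CPM in WT, S100P at 8.24 to 16.7 CPM in OE and at 73.6 to 92.5 CPM in WT, and S100A6 and S100A11 overlapped.

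S100A16 encodes a widely expressed member that can pair with S100A14 and whose function is less well known. It was at 103, 91.0 and 102 CPM in the OE libraries, against 0.303, 0.102 and 0.209 CPM in the WT libraries. All OE libraries were high, and the WT libraries held only 5, 2 and 5 reads. The group means were 98.5 ± 6.48 CPM in OE and 0.205 ± 0.101 CPM in WT, a 480.4-fold difference (log2 fold change 8.90, SE 0.17, edgeR adjusted p = 2.5e-11). Of all tested genes, 281, or 1.75%, had a difference of this size or larger. With 12 reads in all in the WT libraries, the size of the fold rests on few counts. In bulk RNA, fewer cells with the transcript and less transcript per cell cannot be told apart. S100A16 (ENSG00000188643) lies on chromosome 1 from 153606886 to 153613145, minus strand, in GRCh38, with the inner start shown above inside the gene.

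S100A14, the neighbour of S100A16 on chromosome 1 (153614255 to 153616986) and an epithelial member, was close to the limit of detection. Its reads numbered 3, 4 and 3 in the OE libraries, at 0.129, 0.183 and 0.129 CPM, against 0 in each WT library. Set against 3 counts over the WT group, or 0.0501 CPM, its observed OE level was 2.92-fold higher. This ratio allows for counting error in the WT group only. The counting error of the 10 OE reads is left out, so it is not a full lower bound. It was not tested at the filter used, and passed when no filter was applied (edgeR adjusted p = 0.0385). That fit took in 30282 genes, against 16091 at the filter used. For S100P it gave an edgeR adjusted p of 5.64e-168, against 8.2e-07, so its p-values cannot be set beside the others here.

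S100A3, a calcium- and zinc-binding protein best known from hair cuticle, was at 10.7, 6.63 and 8.97 CPM in the OE libraries, against 0.546, 0.716 and 1.01 CPM in the WT libraries. The lowest OE library lay above every WT library. Means were 8.75 ± 2.02 CPM in OE and 0.756 ± 0.232 CPM in WT, or 11.6-fold (log2 fold change 3.49, SE 0.29, edgeR adjusted p = 1.1e-06), and 12.6% of tested genes had a difference of this size or larger. S100A3 (chromosome 1, 153547329 to 153549372) lies inside the span of S100A4 on the same strand, without shared exon bases in GENCODE 29.

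S100A4, a protein linked to cell motility that binds nonmuscle myosin IIA, was at 64.9, 71.7 and 68.5 CPM in the OE libraries, against 58.0, 37.6 and 55.1 CPM in the WT libraries. The groups did not overlap, but the highest WT library came close to the lowest OE library, and WT replicate 2 lay below the other two. Means were 68.4 ± 3.42 CPM in OE and 50.2 ± 11.02 CPM in WT, 1.36-fold (log2 fold change 0.45, SE 0.14, edgeR adjusted p = 0.012). Without WT replicate 2 the log2 fold change was 0.27 (edgeR adjusted p = 0.013). S100A4 spans 153543613 to 153550136 on chromosome 1, and S100A3, inside it, differed 11.6-fold while S100A4 differed 1.36-fold.

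S100A10, also called p11, does not bind calcium and forms a complex with annexin A2 that holds plasminogen at the cell surface. It was at 291, 293 and 303 CPM in the OE libraries, against 230.4, 207 and 235 CPM in the WT libraries. The groups were apart, with little spread within OE. Means were 296 ± 6.63 CPM in OE and 224 ± 14.9 CPM in WT, 1.32-fold (log2 fold change 0.40, SE 0.069, edgeR adjusted p = 0.00032). S100A10 lies at 151982915 to 151994390 on chromosome 1.

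S100P, a member first found in placenta that activates ezrin and binds the receptor AGER, was the single member that fell. It was at 8.55, 16.7 and 8.24 CPM in the OE libraries, against 77.1, 92.5 and 73.6 CPM in the WT libraries. The highest OE library, replicate 2, lay far below every WT library. Means were 11.2 ± 4.82 CPM in OE and 81.1 ± 10.1 CPM in WT, 7.26-fold lower in OE (log2 fold change -2.86, SE 0.23, edgeR adjusted p = 8.2e-07), and 15.0% of tested genes had a difference of this size or larger. S100P lies on chromosome 4, 6693069 to 6697170, plus strand.

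**Figure D2:**
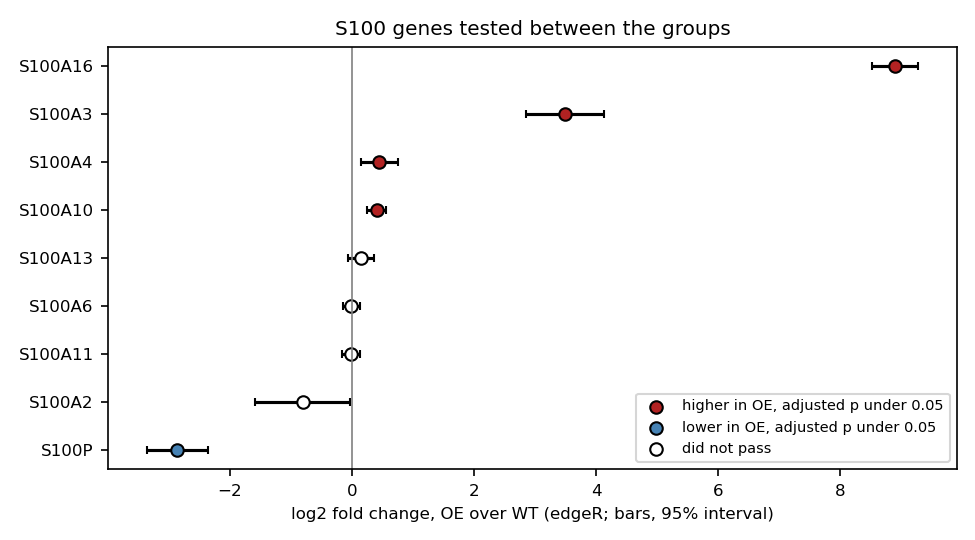
Log2 fold change of the 9 tested S100 genes, OE over WT (horizontal axis), with 95% intervals from the edgeR fit; filled points passed the test and open points did not. S100A16 at 8.90 and S100A3 at 3.49 lie far to the right, S100P at -2.86 to the left, and the open points of S100A6 and S100A11 lie at 0 within narrow intervals.

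S100A6, or calcyclin, was the most abundant member and did not pass. It was at 409, 421 and 399.9 CPM in the OE libraries, against 436, 392 and 412 CPM in the WT libraries, and the groups overlapped. Its log2 fold change was -0.011, with a 95% interval of -0.16 to 0.13 (edgeR adjusted p = 0.88). S100A11, which pairs with annexin A1, likewise overlapped, at 222, 206 and 212 CPM in the OE libraries and 212, 231 and 204 CPM in the WT libraries. Its log2 fold change was -0.016, with an interval of -0.17 to 0.14 (edgeR adjusted p = 0.84). For both genes the interval, at TMM scaling, leaves out any difference beyond 0.2 on the log2 scale in either direction, though their signs depend on the scaling. Reads of S100A11 could be shared with its pseudogenes S100A11P1 and S100A11P2, neither of which reached the test.

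S100A13, which takes part in the release of FGF1, was at 22.5, 24.7 and 23.6 CPM in the OE libraries, against 19.2, 21.9 and 22.8 CPM in the WT libraries. The ranges overlapped, and the log2 fold change of 0.14 had an interval of -0.071 to 0.36 (edgeR adjusted p = 0.20). With library totals as the only scaling it passed (log2 fold change 0.26, edgeR adjusted p = 0.037). Its exons overlap those of S100A1 on the opposite strand over 235 of 2216 bases, and whether the counting used strand is not stated. They also overlap those of the processed transcript AL162258.1 on the same strand over 536 bases, so reads there could be shared whatever the strand setting.

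S100A2, a member known from basal epithelium that can bind p53, was low in all libraries. It was at 0.773, 0.960 and 0.604 CPM in the OE libraries, against 1.03, 1.48 and 1.55 CPM in the WT libraries, from 14 to 37 reads a library. The ranges did not overlap, yet the gene did not pass (log2 fold change -0.81, interval -1.58 to -0.027 before adjustment, edgeR adjusted p = 0.058). It passed without WT replicate 1 (edgeR adjusted p = 0.048).

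Per length, the order of the members' levels was led by the same 4 genes in both groups. On the scale of CPM per kilobase of the principal transcript in GENCODE 29, S100A6 stood first at 609 ± 15.6 in OE and 614 ± 32.5 in WT. S100A11 followed at 359 ± 13.5 in OE and 363 ± 23.2 in WT, then S100A10 at 246 ± 5.52 in OE and 187 ± 12.4 in WT, and S100A4 at 114 ± 5.71 in OE and 83.7 ± 18.4 in WT. The places below differed between the groups. S100A16 was the fifth in OE, at 86.0 ± 5.66, and the ninth in WT, at 0.179 ± 0.088, whereas S100P was the eighth in OE, at 8.74 ± 3.77, and the fifth in WT, at 63.4 ± 7.86. Neighbours in this order overlapped in 1 place in OE, S100A3 and S100P, and in 2 places in WT, S100A4 with S100P and S100A2 with S100A3. A single principal transcript stands for each gene here, so the scale is approximate.

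The summed level of the 10 genes was higher in every OE library than in any WT library, and its makeup differed. It was 1132, 1132 and 1127 CPM in the OE libraries, against 1034, 984 and 1005 CPM in the WT libraries, with a mean of 1130.2 ± 2.87 CPM in OE and 1008 ± 25.2 CPM in WT. S100A6, S100A10 and S100A11 made up 81.2% to 81.4% of that sum in the OE libraries and 84.3% to 84.9% in the WT libraries. S100A16 contributed 8.72% ± 0.581 in OE and 0.0202% ± 0.00949 in WT, and S100P 0.988% ± 0.425 in OE and 8.06% ± 1.16 in WT. The sum is given as a description, with no test.

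**Figure D3:**
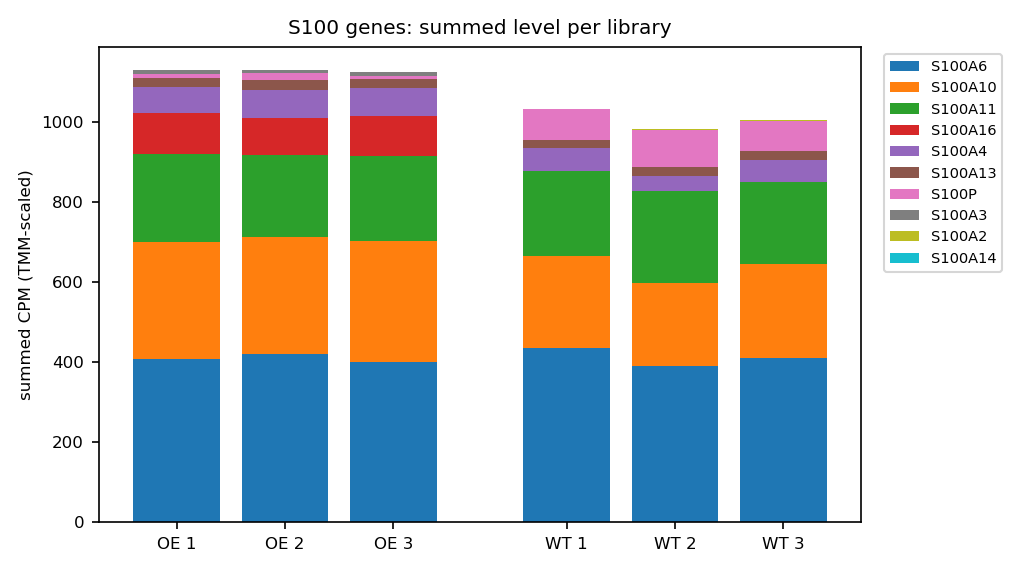
Summed level of the 10 S100 genes in each library (vertical axis, CPM from 0), stacked by gene, OE libraries left of WT libraries. The totals lie between 1127 and 1132 CPM in OE and between 984 and 1034 CPM in WT, and the block of S100A16 is present in OE and that of S100P is thick in WT.

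Between 151982915 and 153631360, from S100A10 to S100A13 on chromosome 1, 8 members were tested, of which 4 were higher, 0 lower and 4 did not pass, against 38.3% higher and 35.7% lower among all tested genes. Within this interval S100A2 was at 0.779 ± 0.178 CPM in OE and 1.36 ± 0.282 CPM in WT, S100A16 at 98.5 ± 6.48 CPM in OE and 0.205 ± 0.101 CPM in WT, and S100A13 at 23.6 ± 1.09 CPM in OE and 21.3 ± 1.87 CPM in WT. Among tested genes with a position in GENCODE 29, which are 94.2% of all tested, the single other gene of the interval, TCHH, a fused-type S100 gene of the hair follicle sheath, was at 0.218 ± 0.110 CPM in OE and 0.829 ± 0.046 CPM in WT, 3.81-fold lower (edgeR adjusted p = 0.0033). Of the flanking genes, THEM4 did not pass, at 26.4 CPM in OE and 22.8 CPM in WT (log2 fold change 0.21, edgeR adjusted p = 0.22), and CHTOP was lower, at 79.4 CPM in OE and 116 CPM in WT (log2 fold change -0.54, edgeR adjusted p = 2.1e-05). THEM4 passed without OE replicate 2 (log2 fold change 0.38, edgeR adjusted p = 0.012).

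Of 10 further S100 genes, none had enough reads to be tested, and 7 had no read in any library: S100A7, S100A7A, S100A8, S100A12, S100B, S100G and S100Z. S100A9, known from neutrophils and inflamed epithelium, had 13 reads over the OE libraries and 8 over the WT libraries. S100A1 and S100A5 each had 8 reads over the OE libraries and 1 over the WT libraries. Of the 7 fused-type S100 genes 5 had no read, and FLG had 1 read in each group.

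Genes of S100 binding partners went both ways. Of 18 binding partners 15 were tested, with 8 higher, 6 lower and 1 not passing, against 38.3% higher and 35.7% lower among all tested genes. With library totals as the only scaling 3 of them were lower. The 3 partners without enough reads included FGF1, the cargo of S100A13, with 3 reads over the OE libraries and 0 over the WT libraries.

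ANXA2, the partner of S100A10, was at 2599, 2551 and 2595 CPM in the OE libraries, against 904, 734 and 915 CPM in the WT libraries, 3.03-fold (log2 fold change 1.60, SE 0.087, edgeR adjusted p = 4.4e-08). AHNAK, a giant scaffold protein that binds the same complex, was 1.65-fold higher, at 367 ± 49.3 CPM in OE and 222 ± 12.1 CPM in WT. S100A10 counts per ANXA2 count were 0.112, 0.115 and 0.117 in the OE libraries, against 0.255, 0.282 and 0.257 in the WT libraries. The ratio was thus lower in every OE library, since ANXA2 differed more than S100A10. An exact two-sided permutation test over the 3 and 3 libraries gave p = 0.1, the smallest it can give. S100A10 counts per AHNAK count were closer, at 0.817 ± 0.11 in OE and 1.01 ± 0.052 in WT. ANXA2 is known to have processed copies in the genome that could share its reads.

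ANXA1, the partner of S100A11, was at 1604, 1507 and 1592 CPM in the OE libraries, against 365, 316 and 372 CPM in the WT libraries, 4.47-fold (log2 fold change 2.16, SE 0.078, edgeR adjusted p = 1.8e-09). S100A11 overlapped between the same groups. S100A11 counts per ANXA1 count were 0.136 ± 0.0026 in OE and 0.620 ± 0.097 in WT, with no overlap (exact two-sided permutation p = 0.1, the smallest possible).

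**Figure D4:**
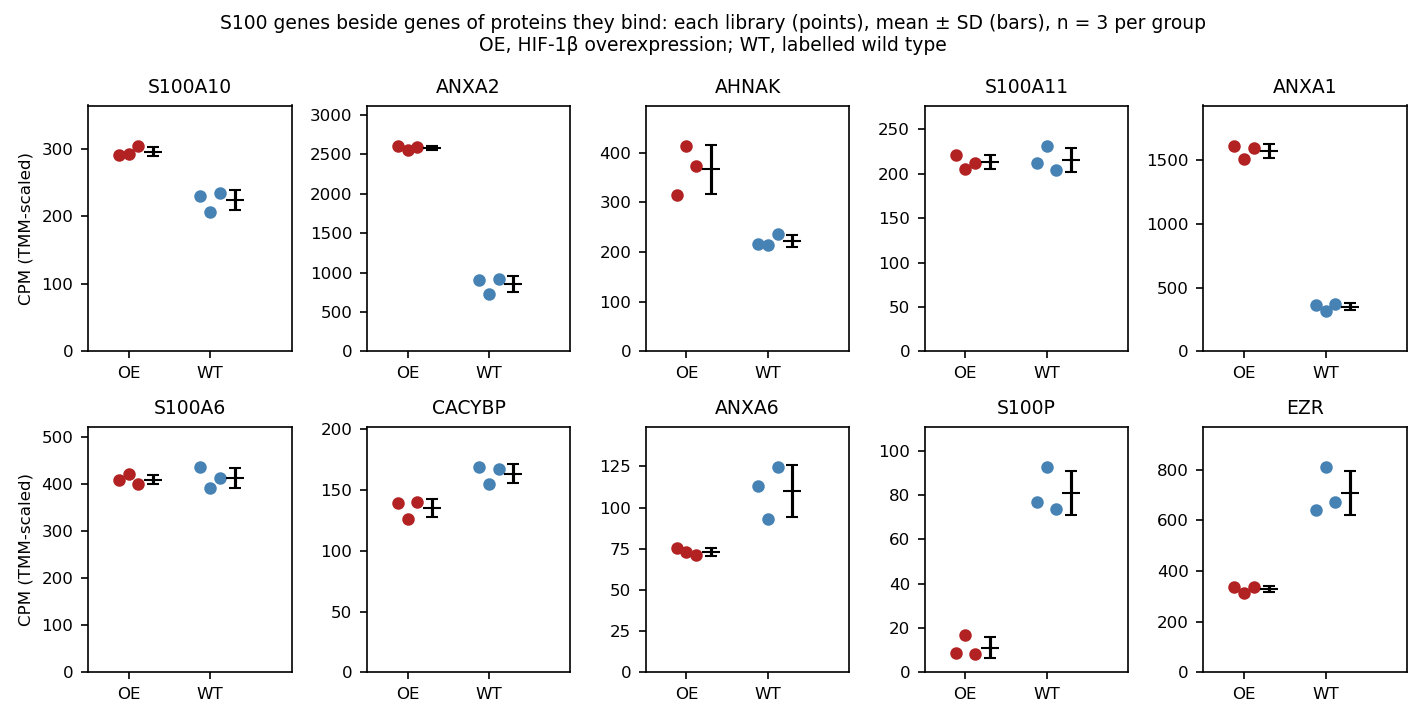
Levels of S100A10, S100A11, S100A6 and S100P beside genes of proteins they bind, in CPM (vertical axes, linear, from 0); points are libraries and bars are mean ± SD, n = 3, with OE left of WT. ANXA2 and ANXA1 were 3.03-fold and 4.47-fold higher in OE while S100A10 was 1.32-fold higher and S100A11 overlapped, and S100P and EZR were both lower.

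Partners of S100A6 and of S100P were found in both directions. CACYBP, the calcyclin-binding protein, was at 135 ± 7.75 CPM in OE and 164 ± 7.42 CPM in WT (log2 fold change -0.27, edgeR adjusted p = 0.0044), and it did not pass with library totals (0.068). S100A6 counts per CACYBP count were higher in OE, at 3.04 ± 0.25, than in WT, at 2.53 ± 0.059, unlike the ratios of S100A10 and S100A11 above. ANXA6 was 1.51-fold lower, at 73.2 ± 2.28 CPM in OE and 110.1 ± 15.7 CPM in WT, while ANXA11 was 1.19-fold higher, at 219 ± 1.28 CPM in OE and 184 ± 13.8 CPM in WT. EZR, the membrane linker ezrin that S100P activates, was at 335, 315 and 335 CPM in the OE libraries, against 643, 809 and 674 CPM in the WT libraries, 2.16-fold lower (log2 fold change -1.11, SE 0.089, edgeR adjusted p = 9.3e-07). S100P and EZR were therefore both lower in OE, by 7.26-fold and 2.16-fold. S100P counts per EZR count were 0.0344 ± 0.016 in OE and 0.115 ± 0.0054 in WT. S100PBP, which encodes a nuclear S100P-binding protein, was 1.45-fold higher, at 29.1 ± 2.89 CPM in OE and 20.04 ± 1.15 CPM in WT (edgeR adjusted p = 6.0e-04). IQGAP1, a scaffold that S100P also binds, was at 413 ± 24.8 CPM in OE and 469 ± 6.88 CPM in WT (log2 fold change -0.19, edgeR adjusted p = 0.026), a call lost with library totals (0.33) and without OE replicate 1 (0.094) or OE replicate 3 (0.091).

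MYH9, the myosin that S100A4 binds, did not pass, at 568 ± 25.2 CPM in OE and 553 ± 21.5 CPM in WT (log2 fold change 0.039, interval -0.11 to 0.18, edgeR adjusted p = 0.61), although it passed with library totals (0.048). TPM1, a tropomyosin gene whose product binds several S100 proteins, had the largest difference among the partners, 5.19-fold, at 274 ± 27.2 CPM in OE and 52.7 ± 3.01 CPM in WT (edgeR adjusted p = 2.2e-09).

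Among 10 tested genes of S100 receptors and the plasminogen system, 5 were higher, 2 lower and 3 did not pass, against 38.3% higher and 35.7% lower among all tested genes. AGER, the receptor of S100P and other released members, was low and did not pass, at 2.5 ± 0.210 CPM in OE and 2.91 ± 0.796 CPM in WT (log2 fold change -0.23, interval -0.81 to 0.35, edgeR adjusted p = 0.44). ALCAM, an adhesion molecule reported to bind S100B, was 10.8-fold higher. TLR4, a receptor of S100A8 and S100A9, was 2.86-fold lower, at 0.736 ± 0.205 CPM in OE and 2.11 ± 0.374 CPM in WT, and BSG 1.27-fold lower.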

How the data were processed

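The authors deposited a table of expected counts per Ensembl gene, credited to salmon by its name; bcl2fastq 2.20 and GRCh38 are named per the submitters' processing notes. The salmon version, annotation release and strand setting are not stated, and per the labels the RNA is named both as polyA and as ribosomal RNA depleted. A further 6 per-sample columns of the table, named H460, correspond to no listed sample and were left out. Up to 9.51% of a library's values were not whole (tolerance 1e-06), and counts were rounded. Of 78932 genes, 42179 had a symbol in the reference table.

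Genes were kept with edgeR 4.0.16 filterByExpr (minimum count 10), scaled by TMM and tested by the quasi-likelihood F test on the group alone; p-values were adjusted by Benjamini-Hochberg across the tested genes, with 0.05 as threshold. SE is the log2 fold change divided by the square root of F. Folds are ratios of group mean CPM. The steps were tested on simulated counts in which few genes differed. In these data 74.0% of tested genes passed, so that run does not show how the scaling behaves here. Alternatives were DESeq2 1.42.0 and its size factors, library totals, other filters, unrounded counts, a replicate block and leaving out each library. Per the labels' batch field the replicate number is the batch, and only the replicate block used it to pair the libraries. Deviations of same-numbered libraries correlated by 0.023, 0.115 and 0.079, and those of different-numbered libraries by -0.0985 to 0.0238. Chi-square per degree of freedom between libraries of a group ranged from 6.03 to 15.8, so no library repeated another. Positions came from GENCODE 29 and promoters from RefSeq.

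The members, gene lists and tests were chosen with earlier results of these data known. All 10 members, the direct partners and up to 2 genes per list with the largest called difference in each direction were named, with the neighbours of the chromosome 1 cluster. A gene that this rule selects is not reported here. MTAP, CDKN2A, KRT7, KRT19, CDH1, ALDH1A1, AKR1C1, NQO1, SMARCA4 and TBXT were named from the marker lists after their values were seen. So were S100PBP from the partners and CALR from the calcium sensors.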

Additional observations from a re-analysis of the deposited data

How the results depend on the processing

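The calls of S100A16, S100A3, S100A4, S100A10 and S100P kept their direction and passed in all 13 alternatives, with log2 fold changes of 8.59 to 9.19, 3.31 to 3.75, 0.27 to 0.56, 0.34 to 0.51 and -3.27 to -2.68. The count of S100 genes higher was 4 or 5, 5 with library totals (S100A13) and without a filter (S100A14, from 10 reads in OE and 0 in WT). Leaving out each library in turn gave 4 higher throughout and 1 to 2 lower, the second being S100A2 without WT replicate 1. With library totals the median over the whole table was 0.15 on the log2 scale, against 0.034, a shift that also moves every member upward. S100A6 changed sign, without passing, with DESeq2 size factors (0.0063), library totals (0.10), the filter at 1 CPM (0.0053) and the DESeq2 test (0.0063), and ranged from -0.057 to 0.0089 when a library was left out. S100A11 changed sign in the same way with DESeq2 size factors (0.0012), library totals (0.098), the filter at 1 CPM (0.00061) and the DESeq2 test (0.0013), and ranged from -0.074 to 0.027 when a library was left out. MYH9 ranged from -0.0097 (without WT replicate 3) to 0.070 when a library was left out, and was at 0.15 with library totals. The cause was not tested. S100A2 and TCHH were not tested at 1 CPM. With the replicate block 4 S100 genes were higher and 1 lower, and over all genes 6138 were higher and 5822 lower, so the block changed no S100 call. Depth limits S100A2, S100A14 and the WT levels of S100A16 and S100A3, each resting on 37 reads a library or fewer.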

Other observations

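Other calcium-binding genes, all but CALR relatives of the S100 genes by their EF-hand loop, were compared between the same libraries. Of 21 listed genes 17 were tested, with 4 higher in OE, 8 lower and 5 not passing, against 38.3% higher and 35.7% lower among all tested genes. Their median log2 fold change was -0.13, which is the value of CALR. CALR, among the 5 not passing, encodes calreticulin, which has no EF-hand. The calmodulin gene CALM3 was 3.83-fold higher, at 496 ± 11.95 CPM in OE and 129.7 ± 8.49 CPM in WT (edgeR adjusted p = 1.9e-09), and CHP1, a regulator of sodium-proton exchange, 1.59-fold higher, at 266 ± 20.8 CPM in OE and 167 ± 4.08 CPM in WT. CALB2, which encodes calretinin, was 7.13-fold lower, at 1.15 ± 0.165 CPM in OE and 8.22 ± 1.70 CPM in WT (edgeR adjusted p = 1.8e-06). HPCAL1, a neuronal-type calcium sensor gene, was 2.73-fold lower, at 53.4 ± 4.61 CPM in OE and 146 ± 5.31 CPM in WT.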
